A study of Mus musculus with 7 samples.

Results

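The subject is the set of vitamin D receptor (VDR) binding peaks around 4 mouse genes of nutrient absorption: Slc5a1, Slc2a2 and Slc2a5, which move sugars, and Slc15a1, which moves small peptides. A peak belonged to the set when its centre lay within 50 kb of one of these gene bodies on build mm9. The 6 peak lists held 207 such peaks of 169686 in all, and they merged into 68 regions of 87029. The binding was measured by chromatin immunoprecipitation with sequencing (ChIP-seq), with an antibody to VDR (sc-1008), in epithelial cells released with EDTA from duodenum and jejunum. Of the 6 libraries, 3 came from wild-type mice given 1,25(OH)2D3, the active hormone, at 10 ng per g body weight, and 3 from wild-type mice given vehicle. All mice were 8 weeks old, ate standard chow and were sampled 1 h after treatment. EDTA-released epithelium mixes absorptive cells with the other epithelial cell types, and no expression was measured, so the cell type could not be checked against marker genes. No label ties a library to a mouse of its own, so p-values measure only how far these libraries spread, which may be technical.

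VDR is a nuclear receptor that binds DNA as a partner of the retinoid X receptor, most tightly at a direct repeat of 2 hexamers with a spacer of 3 bases (DR3). The enterocyte takes in glucose and galactose with sodium through SGLT1 (Slc5a1) and fructose through GLUT5 (Slc2a5), both in the brush border, and GLUT2 (Slc2a2) releases these sugars across the basolateral membrane. PEPT1 (Slc15a1) takes in dipeptides and tripeptides with protons, also at the brush border. In this tissue VDR is best known for its role in calcium absorption, and the 4 genes serve bulk nutrient uptake by the same cells.

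The 1,25(OH)2D3 libraries held 25509 to 41721 peaks from 17152461 to 66524392 tags, and the vehicle libraries held 8755 to 48424 peaks from 15991198 to 68560701 tags. Replicate 3 was the deepest library of each group, and vehicle replicate 3 had the longest list of all. The share of tags in peaks was 11.9%, 15.9% and 19.0% in 1,25(OH)2D3 replicates 1, 2 and 3. In vehicle replicates 1, 2 and 3 it was 2.58%, 4.81% and 8.10%. Vehicle replicate 1 had 19733260 tags and 8755 peaks, where 1,25(OH)2D3 replicate 1 had 17152461 tags and 25509 peaks. The files give positions and no tag count per peak, so a region is either listed or not listed in a library, and a region that is not listed is not shown to be unbound. A list percentile below is the place of a peak in its own list, with 100 for the first peak. What the order of a list follows is not stated, so it serves only to describe and order.

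Windows of 201 bases from the regions the results turn on are shown here, each on the plus strand of mm9 and centred on its merged region. A region is called hormone-only when every 1,25(OH)2D3 library listed it and no vehicle library did. For each gene the windows include its region with the highest mean list percentile among those shared by 6 libraries and among the hormone-only ones, where it had one. Slc2a5 had neither, so 1 of its 2 regions in 5 libraries is shown, a choice made after the values were seen. Capitals mark the closest DR3 where it had at most 2 mismatches to the consensus.
Slc5a1, all 6 libraries, 27.3 kb upstream (chr5:33419496-33419696): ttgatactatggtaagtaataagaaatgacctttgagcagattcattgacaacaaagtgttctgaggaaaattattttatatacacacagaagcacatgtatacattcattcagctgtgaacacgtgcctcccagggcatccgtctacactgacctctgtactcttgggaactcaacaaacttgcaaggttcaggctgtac
Slc5a1, hormone-only, intron 1 (chr5:33450935-33451135): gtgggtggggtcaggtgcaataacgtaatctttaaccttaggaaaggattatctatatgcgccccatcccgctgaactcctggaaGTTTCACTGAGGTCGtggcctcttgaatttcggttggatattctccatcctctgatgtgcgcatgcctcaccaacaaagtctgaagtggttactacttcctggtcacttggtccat
Slc2a2, all 6 libraries, intron 2 (chr3:28604693-28604893): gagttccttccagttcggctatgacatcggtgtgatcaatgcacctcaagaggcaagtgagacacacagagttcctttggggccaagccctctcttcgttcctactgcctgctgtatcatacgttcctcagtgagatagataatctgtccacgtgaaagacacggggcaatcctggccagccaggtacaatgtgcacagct
Slc2a5, 5 libraries, 4.35 kb upstream (chr4:149488946-149489146): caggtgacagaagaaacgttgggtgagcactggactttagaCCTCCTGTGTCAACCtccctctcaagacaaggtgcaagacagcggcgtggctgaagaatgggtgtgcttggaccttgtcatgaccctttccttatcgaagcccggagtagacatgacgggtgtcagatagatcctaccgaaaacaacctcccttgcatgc
Slc15a1, all 6 libraries, 48.9 kb upstream (chr14:121953261-121953461): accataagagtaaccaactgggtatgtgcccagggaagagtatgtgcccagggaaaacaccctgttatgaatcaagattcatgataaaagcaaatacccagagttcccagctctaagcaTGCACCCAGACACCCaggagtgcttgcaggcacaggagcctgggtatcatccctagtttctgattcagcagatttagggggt
Slc15a1, hormone-only, beyond the gene's end (chr14:121855657-121855857): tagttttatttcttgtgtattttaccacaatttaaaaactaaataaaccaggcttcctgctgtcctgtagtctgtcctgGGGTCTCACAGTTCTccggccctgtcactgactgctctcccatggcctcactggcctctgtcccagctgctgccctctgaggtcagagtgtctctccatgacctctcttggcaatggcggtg
The 101 bases just upstream of the Slc5a1 start are shown because it had a region centred on it in both groups (chr5:33446767-33446867): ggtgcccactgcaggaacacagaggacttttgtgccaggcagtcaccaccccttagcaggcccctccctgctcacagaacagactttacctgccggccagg

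Slc5a1 (ENSMUSG00000011034.3, chr5:33446868-33505521, plus strand) had a row of upstream VDR regions that were listed with and without hormone. It had 8, 12 and 11 peaks in 1,25(OH)2D3 replicates 1, 2 and 3, against 6, 8 and 7 in the vehicle replicates. The groups met at 8 peaks, and the means were 10.3 ± 2.08 with 1,25(OH)2D3 and 7 ± 1 with vehicle (SD, n = 3 each), a difference of 3.33 (exact two-sided permutation p = 0.2). No other protein-coding gene body lay within its window. Of its 14 regions, 4 were in all 6 libraries, and all 4 lay upstream, between genes.

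The 4 shared Slc5a1 regions were centred 34.2 kb (chr5:33412525-33412894), 27.3 kb (chr5:33419413-33419779), 19.4 kb (chr5:33427291-33427621) and 12.6 kb (chr5:33434020-33434434) upstream of the start. The one at 27.3 kb stood at list percentiles of 98.4, 98.9 and 98.2 with 1,25(OH)2D3 and 93.8, 98.4 and 99.0 with vehicle, the highest mean of the 68 regions (97.8). One more upstream region, 11.6 kb away (chr5:33435039-33435450), was missing only from vehicle replicate 1. At the start itself, a region centred at -1 bp (chr5:33446699-33447035) was listed in 1,25(OH)2D3 replicates 2 and 3 and in vehicle replicates 1 and 2, so neither group was complete.

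The hormone-only region of Slc5a1 lay in its intron 1, 4.17 kb downstream of the start (chr5:33450873-33451197). It stood at list percentiles of 90.3, 89.6 and 93.7 in the 3 1,25(OH)2D3 lists and was in no vehicle list. It was the only region centred in the Slc5a1 gene body, but the region at the start also overlapped exon 1. Counted by the centres of single peaks, the gene body held means of 1.33 with 1,25(OH)2D3 and 0.333 with vehicle. Beyond the gene's end, the 6 regions within the window, 59.1 to 102 kb from the start, were closest to the start of Spon2, and none was in more than 4 libraries.

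Slc2a5 (ENSMUSG00000028976.4, chr4:149493392-149518278, plus strand), the fructose carrier of the brush border, was the only one of the 4 genes whose groups did not overlap. It had 9, 10 and 9 peaks in 1,25(OH)2D3 replicates 1, 2 and 3, against 2, 4 and 8 in the vehicle replicates. The means were 9.33 ± 0.58 with 1,25(OH)2D3 and 4.67 ± 3.06 with vehicle (SD, n = 3 each), a difference of 4.67 (exact two-sided permutation p = 0.1, the smallest 3 against 3 can give). Every 1,25(OH)2D3 library lay above every vehicle library, as at 17.7% of the 20254 protein-coding genes with a peak (0.0494% had the reverse), and vehicle replicate 3 came within 1 peak of the 1,25(OH)2D3 libraries.

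No Slc2a5 region was in all 6 libraries and none was hormone-only. The 6 regions in all 3 1,25(OH)2D3 libraries were each listed in 1 or 2 vehicle libraries, and the vehicle library that listed them varied. The one 4.35 kb upstream (chr4:149488875-149489217) was in all 3 1,25(OH)2D3 libraries and in vehicle replicates 1 and 3. Another in intron 6, 13.7 kb downstream (chr4:149506892-149507205), stood at percentiles of 90.7, 93.5 and 95.2 with 1,25(OH)2D3 and was in vehicle replicate 3 at 93.4. No region lay within 1 kb of the outermost Slc2a5 start, and the nearest, 1.25 kb downstream in intron 2 (chr4:149494495-149494783), was in 1,25(OH)2D3 replicate 2 alone.

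The Slc2a5 window is shared. Slc2a7, another member of the sugar carrier family, begins 4.80 kb beyond the end of Slc2a5, and Gpr157 lies 13.4 kb away on the other side. Of the 15 regions, 7 had the Slc2a5 start as the closest gene start. The regions 33.4 kb (chr4:149526581-149527003) and 38.3 kb (chr4:149531496-149531920) downstream, both in all 3 1,25(OH)2D3 libraries, lay within Slc2a7.

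Slc2a2 (ENSMUSG00000027690.7, chr3:28596825-28627278, plus strand), the basolateral exit carrier, had a pair of regions just upstream of its start in every library. It had 4, 9 and 9 peaks in 1,25(OH)2D3 replicates 1, 2 and 3, against 5, 5 and 7 in the vehicle replicates. The means were 7.33 ± 2.89 with 1,25(OH)2D3 and 5.67 ± 1.15 with vehicle (SD, n = 3 each), a difference of 1.67 (exact two-sided permutation p = 0.4). The lowest library of all was 1,25(OH)2D3 replicate 1, so the groups overlapped, and the difference was 3.33 without that library and 0.83 without 1,25(OH)2D3 replicate 2 or without 1,25(OH)2D3 replicate 3.

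The upstream pair of Slc2a2 was centred 2.14 kb (chr3:28594510-28594865) and 1.41 kb (chr3:28595254-28595576) before the start, with mean percentiles of 95.2 and 93.7. Another region in all 6 libraries, centred in intron 2 at 7.97 kb (chr3:28604631-28604954), also covered the end of exon 2 and had a mean percentile of 95.8. The last of the 4 lay 41.7 kb downstream, past the gene's end (chr3:28638380-28638728), at a mean percentile of 73.5. Its closest gene start was that of Gm6505, 25.8 kb away. In 1,25(OH)2D3 replicate 1 these 4 shared regions were all that was listed. Slc2a2 had no hormone-only region.

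Slc15a1 (ENSMUSG00000025557.8, chr14:121858841-121904475, minus strand) had the most peaks of the 4 genes, and 2 of its 26 regions were in every library. It had 12, 16 and 17 peaks in 1,25(OH)2D3 replicates 1, 2 and 3, against 5, 9 and 15 in the vehicle replicates. The means were 15 ± 2.65 with 1,25(OH)2D3 and 9.67 ± 5.03 with vehicle (SD, n = 3 each), a difference of 5.33 (exact two-sided permutation p = 0.2). Vehicle replicate 3 lay among the 1,25(OH)2D3 libraries. Inside the gene body alone the means were 5 with 1,25(OH)2D3 and 5.33 with vehicle.

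Of the 26 Slc15a1 regions, 10 were in all 3 1,25(OH)2D3 libraries, and 5 of these were otherwise in vehicle replicate 3 alone. The 2 in all 6 libraries lay 48.9 kb upstream in an intron of Dock9 (chr14:121953205-121953517), a neighbouring gene, and in intron 17 of Slc15a1 (chr14:121870731-121871171). The first stood at 98.2, 98.4 and 98.7 with 1,25(OH)2D3 and 89.5, 92.9 and 98.5 with vehicle. The hormone-only region lay 48.7 kb downstream of the start, past the end of the gene (chr14:121855586-121855927), low in the lists at 34.9, 10.5 and 27.5. The start of Slc15a1 had a region centred at -6 bp (chr14:121904340-121904622) in 1,25(OH)2D3 replicate 3 alone.

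**Figure D1:**
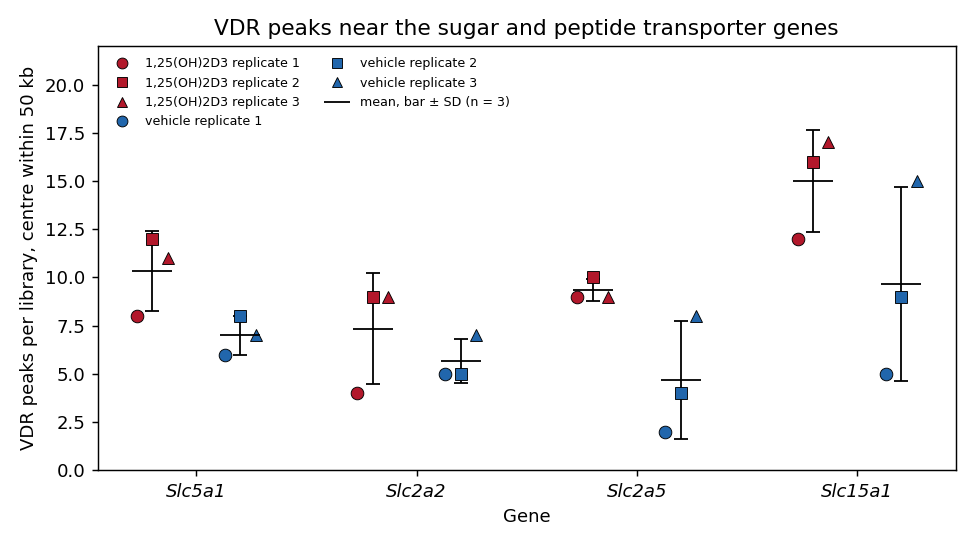
VDR peaks with a centre within 50 kb of each gene, 1 symbol per library, with 1,25(OH)2D3 (red) left of vehicle (blue); horizontal marks are means and bars are ± SD (n = 3). At Slc2a5 the 1,25(OH)2D3 libraries (9 to 10 peaks) sit above the vehicle libraries (2 to 8), and at the other 3 genes the groups meet or overlap.

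**Figure D2:**
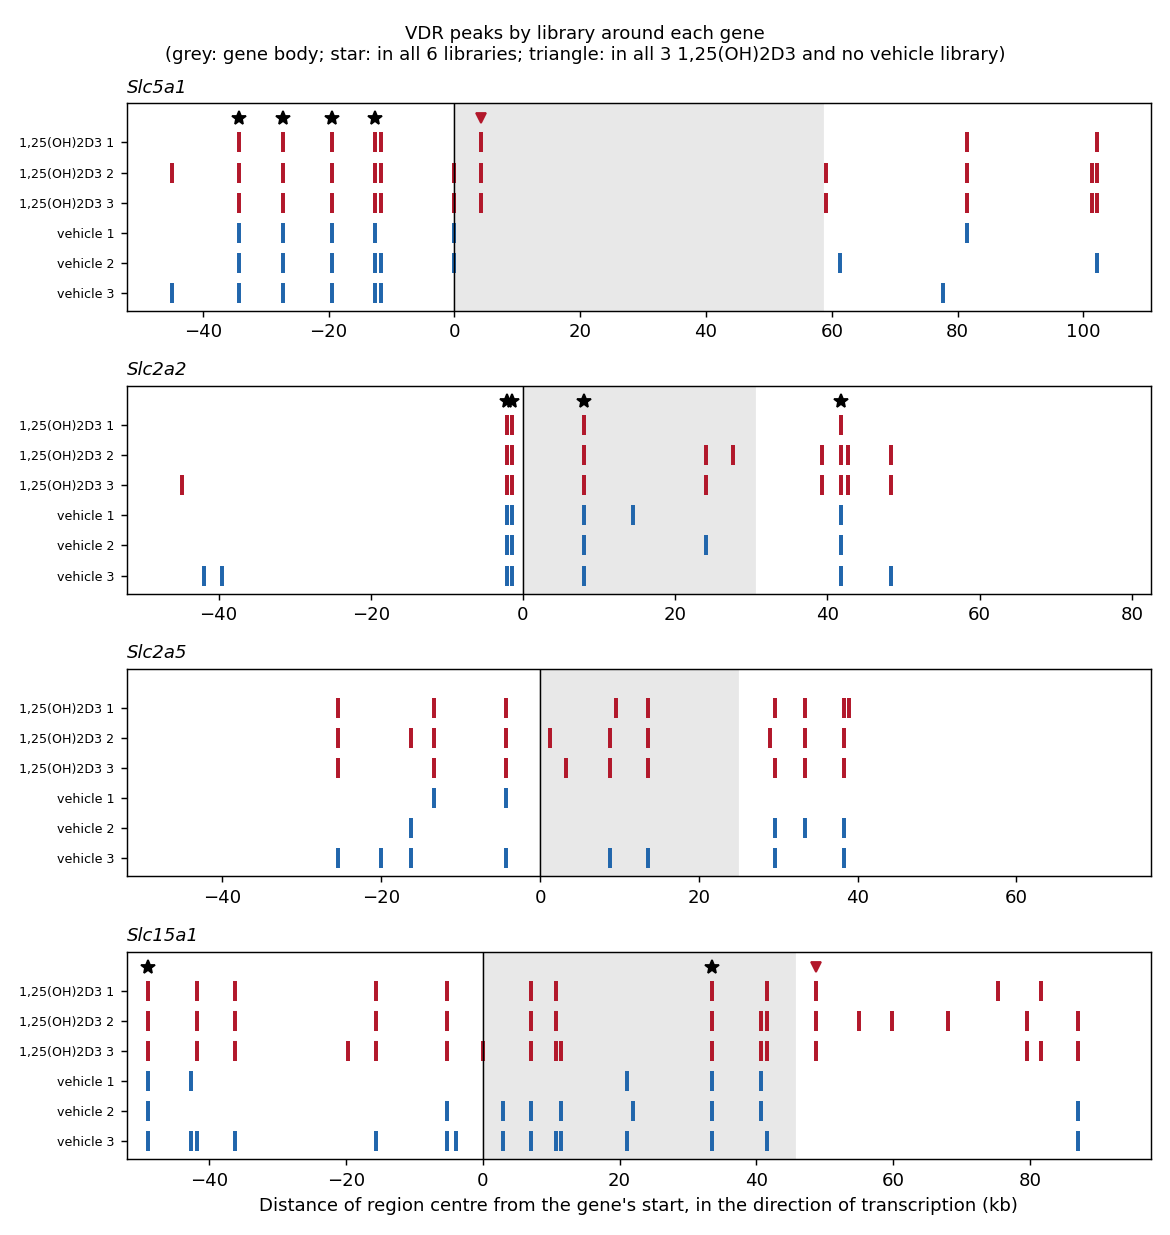
Peaks of each library around the 4 genes, with 1 row per library and the distance of the region centre from the gene's start in kb on the horizontal axis. Stars mark the 10 regions in all 6 libraries and triangles the 2 hormone-only regions. Shared regions line up upstream of Slc5a1 and close to the start of Slc2a2, and Slc2a5 has none.

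Between same-numbered libraries (1,25(OH)2D3 minus vehicle, replicates 1, 2 and 3), the difference was 2, 4 and 4 peaks at Slc5a1, 7, 6 and 1 at Slc2a5, 7, 7 and 2 at Slc15a1, and -1, 4 and 2 at Slc2a2. So 3 of the 4 genes had more peaks with 1,25(OH)2D3 in every pair, as did 36.7% of genes with a peak, and in this respect Slc2a5 did not stand apart.

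None of the 4 differences passed across all genes. Over the 20254 protein-coding genes with a peak, the exact permutation test with Benjamini-Hochberg adjustment called 0 (0%), and 0 had an unadjusted p under 0.05, since 3 against 3 cannot go below 0.1. The adjusted p was 0.749 for Slc5a1 and Slc15a1, 0.885 for Slc2a2 and 0.564 for Slc2a5. The mean peak number was higher with 1,25(OH)2D3 at 63.6% of all 22367 protein-coding genes and lower at 20.4%, and the median difference was 0.667 peaks. A difference as large as that of Slc15a1 was found at 4.04% of genes, of Slc2a5 at 6.46%, of Slc5a1 at 15.5% and of Slc2a2 at 36.9%.

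The 1,25(OH)2D3 lists were longer than the vehicle lists in replicates 1 and 2 and shorter in replicate 3. Per 10000 listed peaks, the mean was 3.24 with 1,25(OH)2D3 and 4.56 with vehicle at Slc5a1, 2.23 and 3.51 at Slc2a2, and 4.68 and 4.95 at Slc15a1, in that order of groups, so the direction turned at these 3 genes. At Slc2a5 it was 2.99 with 1,25(OH)2D3 and 2.21 with vehicle (exact two-sided permutation p = 0.3). With every list shortened to its first 8755 peaks, the means at Slc2a5 were 4.67 with 1,25(OH)2D3 and 3.67 with vehicle (exact two-sided permutation p = 0.6). Those at Slc15a1 were 6.67 in both groups. The part of list length in the peak numbers was not tested beyond these values.

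**Figure D3:**
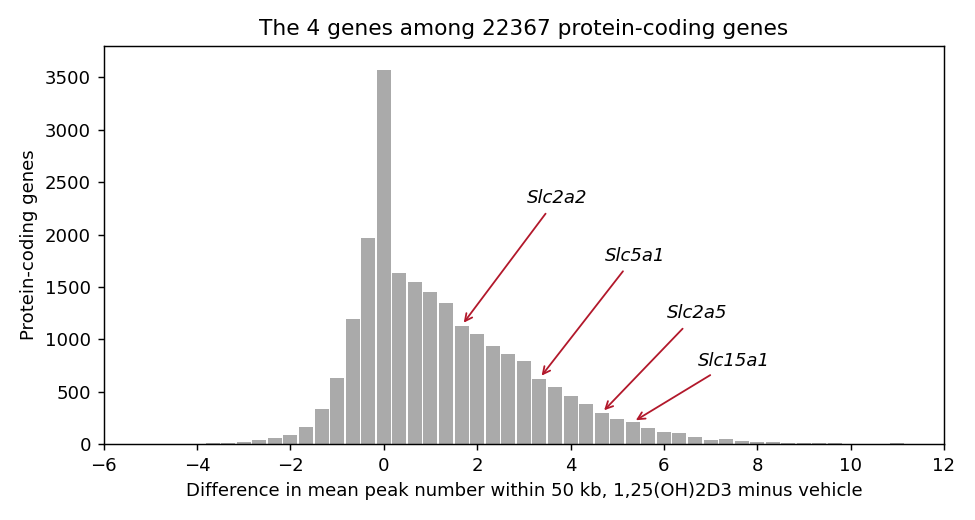
Difference in mean peak number (1,25(OH)2D3 minus vehicle) for 22367 protein-coding genes, in peaks per library within 50 kb, with the 4 genes marked by arrows. All 4 are above 0, between 1.67 and 5.33, within the right side of the distribution; 19 genes lie outside the axis.

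VDR peaks were more numerous at these 4 genes than at most protein-coding genes in both groups. As many peaks as at Slc15a1 were found with 1,25(OH)2D3 at 0.586% of protein-coding genes and with vehicle at 0.519%. For Slc5a1 these shares were 3.18% with 1,25(OH)2D3 and 2.04% with vehicle, and for Slc2a5 5.06% and 8.92%. At Slc2a2 they were 11.7% with 1,25(OH)2D3 and 4.70% with vehicle. These shares take no account of window length, which grows with the gene. Per 100 kb of window, the mean peak number with 1,25(OH)2D3 was 10.3 ± 1.82 at Slc15a1, 7.47 ± 0.46 at Slc2a5, 6.51 ± 1.31 at Slc5a1 and 5.62 ± 2.21 at Slc2a2. As many per 100 kb with 1,25(OH)2D3 were found at 0.282%, 3.63%, 6.73% and 10.8% of protein-coding genes, in that order. With vehicle the mean per 100 kb was 6.64 ± 3.46 at Slc15a1, 4.41 ± 0.63 at Slc5a1, 4.34 ± 0.89 at Slc2a2 and 3.74 ± 2.45 at Slc2a5 (SD, n = 3 each). Neighbours in these orders differed by less than the larger of their SDs, except Slc15a1 and Slc2a5 with 1,25(OH)2D3.

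Around the 4 genes, regions in every library outnumbered hormone-only regions. Of the 68, 10 (14.7%) were in all 6 libraries, against 4.99% of all merged regions, and 2 (2.94%) were hormone-only, against 5.39%. None was complete in the vehicle group and absent with 1,25(OH)2D3, a class that held 0.0299% of all regions. Most of the background was listed once: regions in a single library were 62.6% of all merged regions and 30.9% of the 68. Those in 1 vehicle library and no other were 40.3% of all and 11.8% of the 68. Among 28 regions that every 1,25(OH)2D3 library listed, 35.7% were also in all 3 vehicle libraries, against 24.3% over the genome, and 7.14% were in none, against 26.2%. Genes with a hormone-only region were 2 of these 4 and 33.2% of all protein-coding genes, and genes with a region in all 6 libraries were 3 of 4, against 29.1%. These shares are descriptions, and the regions of 1 gene are not independent of each other.

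The count of hormone-only regions depended on single libraries. It was 9 without vehicle replicate 3, 7 without 1,25(OH)2D3 replicate 1, and 4 without vehicle replicate 1 or vehicle replicate 2. Among the 11 regions in all 3 1,25(OH)2D3 libraries and exactly 1 vehicle library, that library was vehicle replicate 3 at 7. This class held 16.2% of the 68 regions, against 5.58% of all merged regions. Vehicle replicate 3 also had by far the longest vehicle list, with 48424 peaks against 8755 and 14887 in vehicle replicates 1 and 2. The counts without single libraries and the 7 were not set against all merged regions. They are therefore not shown to be particular to the 4 genes. Between the shallow libraries, replicates 1 and 2 of each group, 9 regions were listed in both libraries with 1,25(OH)2D3 and not at all with vehicle, and the reverse held for 0. These were 13.2% and 0% of the 68 regions, against 9.90% and 0.232% of all merged regions. Between the deep libraries, 19 regions (27.9%) were listed with 1,25(OH)2D3 alone, 10 (14.7%) with vehicle alone and 27 (39.7%) in both. Over all merged regions, 26961 (31.0%) were in the 1,25(OH)2D3 library alone, 33664 (38.7%) in the vehicle library alone and 14760 (17.0%) in both. So the share with 1,25(OH)2D3 alone was close to that over all regions. The share with vehicle alone was lower at the 4 genes, and the share in both was higher. For any 2 libraries, the regions in both were taken as a share of those in either. Among the 68 regions that share was 0.538 to 0.722 between 1,25(OH)2D3 libraries, 0.310 to 0.432 between vehicle libraries and 0.3 to 0.489 across the groups. The vehicle pairs thus lay within the range of the pairs across groups. Unequal peak numbers cap such a share, and vehicle replicates 1 and 3 held 18 and 37 of these peaks. It was not taken over all merged regions, so it is not shown to be particular to the 4 genes.

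**Figure D4:**
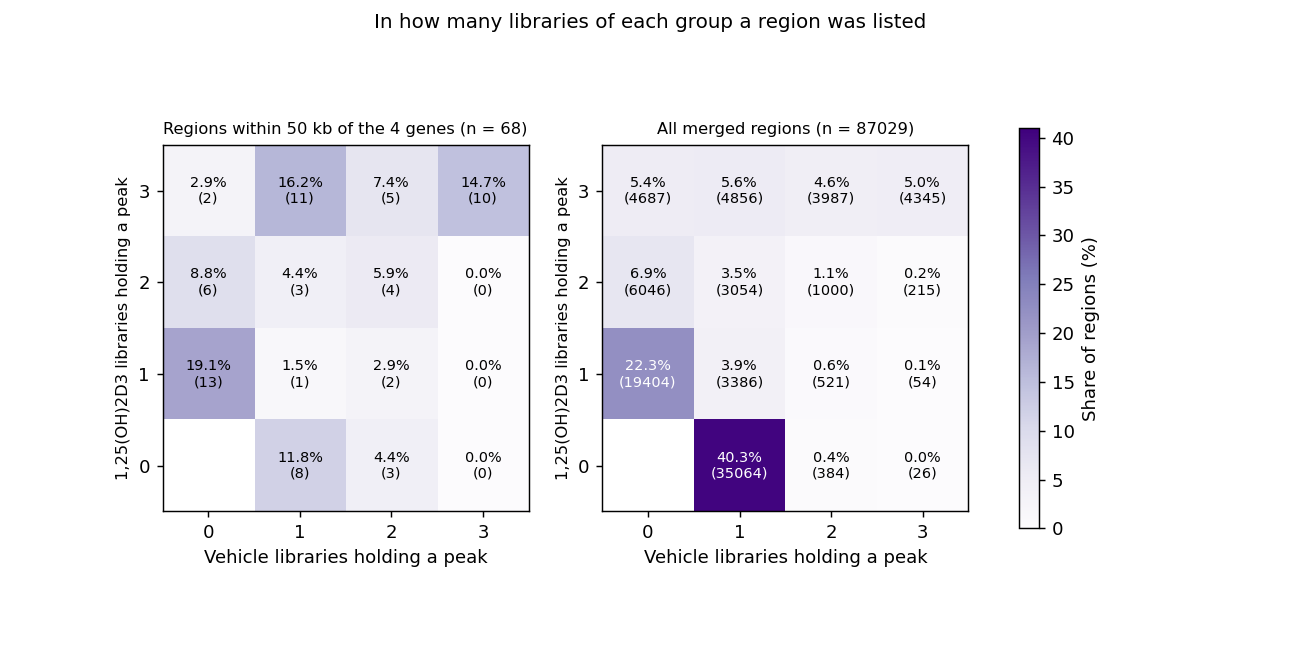
Share of regions (%) by the number of 1,25(OH)2D3 libraries (vertical) and vehicle libraries (horizontal) that list them, with the number of regions in parentheses, for the 68 regions at the 4 genes (left) and all 87029 merged regions (right). The cell with all 6 libraries holds 14.7% of the regions at the 4 genes and 4.99% of all regions, and the hormone-only cell holds 2.94% and 5.39%.

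Regions in all 6 libraries stood higher in the lists than regions in 1. The median of the mean list percentile was 50.6 for the 21 regions in 1 library and 95.5 for the 10 regions in all 6 libraries. Over all merged regions these medians were 27.1 and 83.6. The 10 shared regions ranged from 73.5 to 97.8. The 2 hormone-only regions were far apart, at 91.2 for the one in Slc5a1 and 24.3 for the one past Slc15a1.

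**Figure D5:**
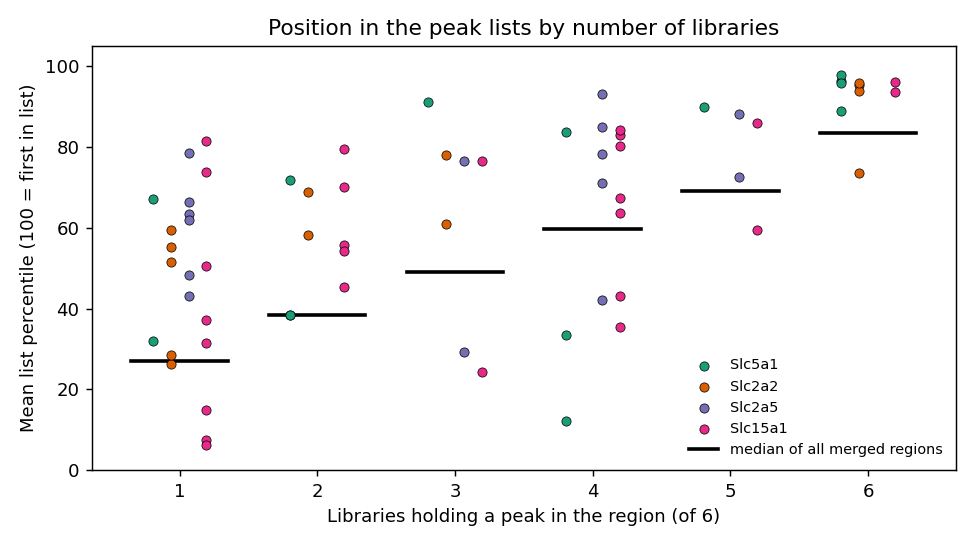
Mean list percentile (100 for the first peak of a list) of the 68 regions by the number of libraries that list them, coloured by gene; black bars are medians over all merged regions. The regions in all 6 libraries lie between 73.5 and 97.8, and those in 1 library reach from 6.14 to 81.6.

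By position, 9 of the 68 regions were centred within 1 kb of an annotated transcription start, 1 in an untranslated exon, 25 in an intron and 33 between genes. The starts of Slc5a1 and Slc15a1 themselves took 2 of the 9, and the others were starts of shorter Slc2a2 and Slc2a5 transcripts or of Slc2a7. In all, 19 regions were centred in the body of the gene they were chosen for, and 44 had that gene's start as the closest of any protein-coding gene. Of the 15 regions in at least 5 libraries, 10 lay upstream of the start, as did 26 of all 68. Slc5a1 alone held 5 of these 10.

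A DR3 element was about as frequent here as in all merged regions, of which more were in 1 library (62.6%, against 30.9% here). It was searched on both strands within 100 bp of the region centre, with at most 1 mismatch, and was found in 6 of the 68 regions (8.82%), against 10.9% of all merged regions. With 0 mismatches the shares were 1.47% of the 68 and 1.64% of all, and with at most 2 mismatches 50% and 46.0%. None of the 10 regions in all 6 libraries and neither of the 2 hormone-only regions held one, while 28.1% and 20.6% of all regions of these classes did. No match says only that this pattern is not in these windows.

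The 6 elements are written 5′ to 3′ in the direction of the repeat, with the hexamers in capitals and the spacer in lower case.
Slc15a1, 41.7 kb upstream, minus strand, 0 mismatches (chr14:121946250-121946264): GGTTCAccaGGTTGA
Slc15a1, 36.2 kb upstream, minus strand, 1 mismatch (chr14:121940681-121940695): GAGTCAtaaAGTTCA
Slc15a1, 5.19 kb upstream, minus strand, 1 mismatch (chr14:121909718-121909732): GGTTCAccaAGTTGG
Slc2a5, intron 5, minus strand, 1 mismatch (chr4:149502227-149502241): AGGTCCactAGTTCA
Slc5a1, 59.1 kb downstream, plus strand, 1 mismatch (chr5:33505928-33505942): AGGTCAgggGGTACA
Slc5a1, 101 kb downstream, plus strand, 1 mismatch (chr5:33548174-33548188): AGGAGAcaaAGTTCA

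The only element with 0 mismatches lay 47 bp from the centre of a region in an intron of Dock9, upstream of Slc15a1 (chr14:121946038-121946382). That region was in all 3 1,25(OH)2D3 libraries, at percentiles of 78.8, 78.6 and 87.8, and in vehicle replicate 3 at 86.2. The element's neighbourhood of 201 bases (chr14:121946110-121946310, plus strand, with the bases that pair with the element in capitals) is printed for that reason: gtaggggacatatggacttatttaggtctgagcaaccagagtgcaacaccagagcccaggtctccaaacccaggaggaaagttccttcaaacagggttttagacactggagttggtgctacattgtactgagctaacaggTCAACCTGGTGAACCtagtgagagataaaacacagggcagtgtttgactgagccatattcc
All 3 Slc15a1 regions with an element were in all 3 1,25(OH)2D3 libraries and in vehicle replicate 3. Vehicle replicate 2 listed only the one 5.19 kb upstream, and vehicle replicate 1 listed none of them. The Slc2a5 region with an element was in 1,25(OH)2D3 replicates 2 and 3 and in vehicle replicate 3. At Slc5a1 both were in 1,25(OH)2D3 replicates 2 and 3 and in no vehicle library.

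Of the other patterns searched, the GATA factor letters TGATAA or AGATAA were in 30 of the 68 regions (44.1%), against 29.7% of all merged regions. The count was 14 of 26 at Slc15a1, 6 of 14 at Slc5a1, 5 of 13 at Slc2a2 and 5 of 15 at Slc2a5. In regions found in at least 2 libraries it was 25 of 47 (53.2%), against 33.4% over the genome, in regions of 1 library 5 of 21 (23.8%), against 27.6%, and in those of all 6 libraries 4 of 10, against 38.5%. The hexamer AGGTCA was in 20.6% of the 68 and 21.7% of all, and a repeat of it with a spacer of 1 base (DR1, at most 2 mismatches) in 7.35% and 6.79%. The AP-1 letters TGANTCA were in 13.2% and 10.9%, the CDX letters TTTATG in 14.7% and 16.2% and the HNF1 letters GTTAAT in 8.82% and 9.08%, again of the 68 regions and of all. A match is a description and not a shown site.

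Of 17 other sugar and peptide carriers, which include Slc2a7 with its share of the Slc2a5 regions, all had at least 1 peak within 50 kb. A region in all 6 libraries lay near 8 (47.1%, against 29.1% of all protein-coding genes) and a hormone-only region near 6 (35.3%, against 33.2%). The median of their mean peak numbers was 5.33 with 1,25(OH)2D3 and 2.67 with vehicle, against 2.33 and 1.33 over all protein-coding genes. The mean was higher with 1,25(OH)2D3 at 15 (88.2%, against 63.6% of all) and lower at 2 (11.8%, against 20.4%), and 0 passed the adjusted test. The groups did not overlap at 6 (35.3%), all higher with 1,25(OH)2D3, against 16.0% of all protein-coding genes. Slc5a4a, which encodes a relative of SGLT1, averaged 13.7 with 1,25(OH)2D3 and 7.67 with vehicle and had 4 hormone-only regions. Its neighbour Slc5a4b, whose window overlaps, had 3. Slc37a4, the carrier of glucose 6-phosphate into the endoplasmic reticulum, averaged 6 with 1,25(OH)2D3 and 1.67 with vehicle and also had 3. Slc5a11 (a sodium-dependent inositol carrier), Slc5a2 (the renal glucose carrier SGLT2) and Slc2a1 (the widespread glucose carrier GLUT1) had 1 each. The 2 with a lower mean, named after their values were seen, were Slc15a2, the peptide carrier PEPT2 of the kidney (0.333 with 1,25(OH)2D3 and 1.33 with vehicle), and Slc5a9 (1.67 with 1,25(OH)2D3 and 2 with vehicle).

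Among 21 genes that digest or handle sugars and peptides, 17 had a region in all 6 libraries (81.0%, against 29.1% of all protein-coding genes) and 13 a hormone-only region (61.9%, against 33.2%). The median of their mean peak numbers was 7.67 with 1,25(OH)2D3 and 4 with vehicle. The mean was higher with 1,25(OH)2D3 at 19 (90.5%, against 63.6% of all), lower at 1 (Gnat3, 4.76%, against 20.4%, named after its value was seen) and equal at 1 (Lct, likewise), with 0 past the adjusted test. The groups did not overlap at 8 (38.1%), all higher with 1,25(OH)2D3, against 16.0% of all genes. Khk, the first enzyme of fructose breakdown, had 9, 10 and 12 peaks with 1,25(OH)2D3 and 3, 4 and 5 with vehicle. Its window held 5 hormone-only regions, where that of the fructose carrier Slc2a5 held 0. Other genes within the windows of these 21 were not looked up, so such regions are not assigned to the gene named. Anpep, a brush border peptidase, had 3 hormone-only regions. Enpep and Mme, peptidases as well, had 2 each, as did Slc9a3, the sodium-proton exchanger that restores the proton gradient for PEPT1.

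The genes most like each member were those with the smallest summed difference in peak number over the 6 libraries, among protein-coding genes over 1 Mb away. For Slc2a5 these were Apoa1, Slc25a15 and Tulp4, each differing by 2 peaks in all, and Apoa1 had 9, 10 and 9 peaks with 1,25(OH)2D3 and 2, 3 and 7 with vehicle. For Slc5a1 they were Lgals3 and Mapk6, at 3 peaks each, and 2010007H06Rik at 4, a distance that 12 genes had. For Slc2a2 they were Sema7a at 2 peaks and 4930442H23Rik and Lyrm7 at 3 each. For Slc15a1 they were Mllt3 at 4 peaks and Eps8 and Gipc2 at 6 each.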

How the data were processed

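VDR ChIP-seq peak lists of 3 1,25(OH)2D3 and 3 vehicle libraries were grouped by their titles. The only input library listed carries the 1,25(OH)2D3 dose and was not analysed here. The submitters' processing notes name Bowtie, HOMER and mm9, without versions. Per the file headers, the authors called each library alone against 1 input at a false discovery rate of 0.001, with at least 4-fold over input and over the local 10 kb and a Poisson limit of 0.0001. The deposited score is 1 for every peak, and the deposited coordinates are in bases; both come from the authors' files. The sequencers named in the labels are not tied to libraries, so no batch could be compared.

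Overlapping peaks (at least 1 bp) of the 6 lists were merged into regions, leaving out the mitochondrial chromosome. The centre of a merged region decided its place, and it was described at its GENCODE version 1 annotation (Ensembl 65, build NCBI 37, the assembly of mm9, with 0 peaks past a chromosome end); sequences were read from that assembly. The tag totals are those of the headers. Peak numbers per gene were compared by exact two-sided permutation over all protein-coding genes, with Benjamini-Hochberg adjustment and a threshold of 0.05; merging, motif search and test were checked on simulated data (Python 3.11.15, NumPy 2.4.6, pysam 0.24.0). Same-numbered libraries of the 2 groups deviated together from their group means over genes (correlations of 0.37, 0.13 and 0.33 for replicates 1, 2 and 3), so a replicate block was tried; replicate 3 is the deep library of both groups. Named regions were the one nearest each start, up to 4 hormone-only and up to 4 in all 6 libraries per gene by mean percentile; named pathway genes were up to 6 per list by hormone-only regions, of which 1 is not reported here. Members, lists and tests were chosen with earlier results of these data known.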

Additional observations from a re-analysis of the deposited data

How the results depend on the processing

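The difference in peak number at Slc2a5 kept its sign in 13 of 13 alternatives, the block aside (0.784 to 7.33 peaks, the low value being per 10000 listed peaks). Its groups did not overlap, so the alternatives that only leave out libraries could not change that sign. At Slc5a1 the difference was positive in 12, at Slc2a2 in 11 and at Slc15a1 in 10 of 13. Per 10000 listed peaks it was -1.32 at Slc5a1, -1.28 at Slc2a2 and -0.27 at Slc15a1. With lists of equal length it was -0.33 at Slc2a2 and 0 at Slc15a1, there were 39 regions and 1 hormone-only region, and the mean list percentile of the shared regions differed by -4.84 (1,25(OH)2D3 minus vehicle), against 2.81 with full lists, whose unequal lengths make it no measure of change. In the gene bodies alone the difference at Slc15a1 was -0.33, and there were 19 regions, 1 hormone-only and 2 in all 6 libraries. Within 100 kb, 5 regions were hormone-only and 16 in all 6 libraries. A DR3 was in 1 region with 0 mismatches (1.64% of all merged regions held it) and in 34 with at most 2 (50%, against 46.0% of all). The cause of the changes per listed peak and under shortened lists was not tested; the others follow from the narrower or wider window or pattern.

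Leaving out 1 library gave 2.5 to 4.5 peaks at Slc5a1, 0.83 to 3.33 at Slc2a2, 3.33 to 6.33 at Slc2a5 and 3 to 8 at Slc15a1, 62 to 67 regions, 2 to 9 hormone-only regions and 10 to 14 in all remaining libraries. Regions in the vehicle libraries only numbered 0 to 2, with 1 without vehicle replicate 1 and 2 without vehicle replicate 2, and the percentile difference was 1.78 to 5.50. With the replicate block, exact permutation p was 0.25 for Slc5a1, Slc2a5 and Slc15a1 and 0.5 for Slc2a2, and 0.25 is the smallest that 3 pairs allow; the block changed no call, since none passed. With 2 against 2 shallow libraries the smallest p is 0.333. Depth limits all counts, since a site under a library's tag threshold of 10 to 20 tags is not listed. The share of tags in peaks also differed between the groups, and its part in the counts was not tested.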
